A study of Mus musculus with 4 samples.

Results

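A total of 1018 windows of 400 kb, of 5853 compared on the 19 autosomes (17.4%), lay in opposite A/B compartments in 2 Hi-C matrices. Both are labelled as male mouse embryonic stem cells (mESCs), 1 as WT and 1 as Firre KO. In Hi-C, crosslinked chromatin is cut and religated, and the read pairs count how often each pair of regions was joined. For each autosome, the contacts of each window were divided by the mean at the same distance, the windows' profiles were correlated with each other, and the first principal component (PC1) of the correlation matrix was given the sign that correlated positively with the number of protein-coding genes. A positive PC1 is called A here and a negative PC1 is called B. A window was counted when its PC1 had opposite signs in both matrices and differed by more than 1 standard deviation (SD) of the WT values of its chromosome. Of the 1018, 522 windows (8.92% of all) were A in WT and B in the matrix labelled Firre KO, and are called A-to-B windows. The other 496 (8.47%) were B in WT and A in the other, and are called B-to-A windows. The windows were thus chosen by their PC1 values, and these shares are set by that rule and carry no test.

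The series asked whether chromosome structure around Firre, an X-linked long non-coding RNA gene, depends on that locus. Its labels give 2 libraries for each genotype, and 1 matrix was deposited for each genotype from its pooled libraries. The study calls its mESC libraries technical duplicates, so that each genotype is 1 biological sample, and the differences have no replicate check and all intervals cover counting error only. The WT cells were the N3 male line grown in 2i medium, and those labelled Firre KO were described as male mESCs with the Firre locus removed by recombination between loxP sites, which were co-cultured in 2i medium with irradiated feeder fibroblasts (MEFs) and depleted of feeders by repeated plating on gelatin. A results sentence of the study can be read as both genotypes grown on feeders. Its figure legend, like its methods, gives 2i for WT and feeders with 2i for KO. The study does not say whether the KO cells derive from N3, so that genotype, line and culture cannot be told apart.

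The deletion was examined first, because it checks the labels. The 40 kb bin that lies wholly inside the gene (chromosome X, 47920001 to 47960000, mm9) had 1550 read pairs within the X chromosome in the WT matrix against 1144 in the other, where the median X chromosome bin held 422 and 362. Read pairs over the locus were thus not lost from that matrix, which, because only its label ties it to the deletion, is called the KO-labelled matrix. The cell type and sex of both matrices likewise rest on the labels and were not tested. Depth differed as well: 65611035 read pairs were found for WT and 46635652 for the KO-labelled matrix, and 15.7% and 34.8% of the autosomal pairs joined different chromosomes. In a pool of cells, a window that differs in every cell and a window that differs because the cells of each kind make up other shares cannot be told apart.

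Chromosomes fold into compartments in which active, gene-rich and GC-rich regions (A) contact each other and inactive, gene-poor regions (B) contact each other, both along a chromosome and between chromosomes. Which regions lie in A differs between cell types, and genes that define a cell's identity often lie in A in that cell type and in B elsewhere. In mESCs, Sox2 and Esrrb are transcription factors of the naive pluripotency network, whereas Prrx1 and Twist1 are transcription factors of mesenchymal cells such as fibroblasts.

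The start sites of these genes lie in windows of opposite direction. As examples, 4 promoters are shown: Sox2 and Tcl1 from A-to-B windows, and Prrx1 and Twist1 from B-to-A windows. They were picked for the widest PC1 difference among naive pluripotency and fibroblast genes with an available sequence. Dcn and Lum, whose window had a wider difference than those of Prrx1 and Twist1, had none. Each runs 5′ to 3′ from 250 bases before to 50 bases after the RefSeq start. Sequences were taken from RefSeq (GRCm38.p6) and placed in mm9 by an exact match. Capitals mark CG dinucleotides.
Sox2 (chr3:34548667-34548966, plus strand): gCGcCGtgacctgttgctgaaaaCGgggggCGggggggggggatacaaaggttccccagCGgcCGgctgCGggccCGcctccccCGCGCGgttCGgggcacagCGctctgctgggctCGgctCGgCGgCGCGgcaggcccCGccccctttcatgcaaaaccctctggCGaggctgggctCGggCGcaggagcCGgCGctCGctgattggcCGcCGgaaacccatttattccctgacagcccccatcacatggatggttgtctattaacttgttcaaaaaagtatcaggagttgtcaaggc
Tcl1 (chr12:106460898-106461197, minus strand): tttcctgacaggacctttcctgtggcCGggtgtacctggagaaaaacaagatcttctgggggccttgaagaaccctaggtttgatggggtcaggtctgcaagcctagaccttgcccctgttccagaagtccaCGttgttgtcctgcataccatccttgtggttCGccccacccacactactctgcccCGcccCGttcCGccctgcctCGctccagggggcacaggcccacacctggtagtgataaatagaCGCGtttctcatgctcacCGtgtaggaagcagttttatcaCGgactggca
Prrx1 (chr1:165243732-165244031, minus strand): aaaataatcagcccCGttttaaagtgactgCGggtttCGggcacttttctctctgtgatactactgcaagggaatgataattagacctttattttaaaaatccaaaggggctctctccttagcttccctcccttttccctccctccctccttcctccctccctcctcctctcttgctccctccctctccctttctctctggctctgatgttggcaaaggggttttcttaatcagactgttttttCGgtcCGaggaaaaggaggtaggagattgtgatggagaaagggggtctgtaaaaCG
Twist1 (chr12:34642286-34642585, plus strand): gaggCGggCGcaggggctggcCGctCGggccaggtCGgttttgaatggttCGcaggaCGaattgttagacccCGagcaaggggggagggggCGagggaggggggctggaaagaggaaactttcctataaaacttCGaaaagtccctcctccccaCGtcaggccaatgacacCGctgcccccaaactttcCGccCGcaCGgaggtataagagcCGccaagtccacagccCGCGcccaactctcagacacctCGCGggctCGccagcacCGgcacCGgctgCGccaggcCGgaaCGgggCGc
The Sox2 and Twist1 promoters each hold 27 CG dinucleotides, the Tcl1 promoter 11 and the Prrx1 promoter 6. The median over all promoters, which were placed at GENCODE and not RefSeq starts, was 12. Against it, each direction has a promoter with many CG dinucleotides, while Tcl1 is near the median and Prrx1 below it.

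The PC1 scores that chose the windows are given here as a description, in units of the WT SD of the chromosome. The median A-to-B window scored 0.947 in WT and -0.833 in the KO-labelled matrix, and the median B-to-A window -0.860 and 0.843. For comparison, the 1924 windows that were A in both matrices had medians of 1.25 and 1.23, and the 2561 that were B in both had -0.943 and -0.898. The remaining 350 windows had opposite signs but differed by less than 1 SD. Near the threshold, the window of Tle4 (chromosome 19), at 0.385 and -0.618, was just inside, and the window of Alox5 (chromosome 6), at 0.463 and -0.532, just outside. In the other direction, the window of Slc9a9 (chromosome 9), at -0.944 and 0.0595, was just inside, and the window of Kcnq5 (chromosome 1), at -0.990 and 0.00677, just outside.

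**Figure D1:**
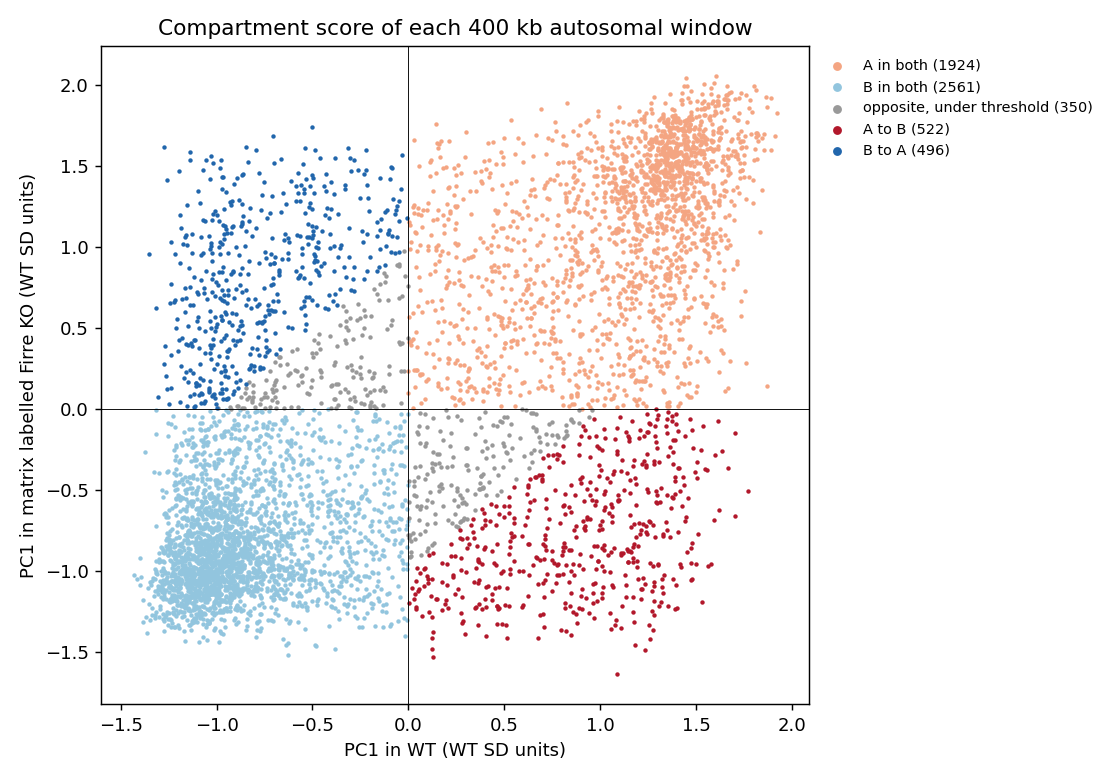
PC1 of each of the 5853 autosomal 400 kb windows in WT (x axis) and in the KO-labelled matrix (y axis), in units of the WT SD of the chromosome; each point is a window, coloured by class. The 522 A-to-B windows fill the lower right and the 496 B-to-A windows the upper left, apart from the 350 grey windows of opposite sign under the threshold.

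Member windows were found on every autosome, at unequal shares. Chromosome 13 had the highest share, 34.6% of its windows, with 49 A-to-B and 50 B-to-A windows. It was followed by chromosomes 18 (24.8%), 3 (23.1%) and 5 (22.8%), and the lowest shares were those of chromosomes 6 (8.31%) and 11 (7.09%). Chromosome 7 held 30 A-to-B windows and 8 B-to-A windows, and chromosome 15 held 21 and 32, so that the balance of directions also differed between chromosomes. A-to-B windows were more numerous on 8 autosomes and B-to-A windows on 11. Over the windows of a chromosome, PC1 in both matrices correlated with a median Pearson r of 0.671, from 0.294 on chromosome 13 to 0.849 on chromosome 11. On chromosome 13, PC1 of the KO-labelled matrix had a correlation of only 0.0261 with gene count, against 0.407 for the second component. The second component also correlated better with gene count on chromosomes 7, 14, 16 and 18 of the KO-labelled matrix and on chromosomes 7 and 9 of WT. On chromosome 13, PC1 nevertheless followed the contacts with other chromosomes described next, with r = 0.951 over the windows of that chromosome. Without chromosome 13, 473 A-to-B and 446 B-to-A windows remained, 16.5% of the others.

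**Figure D2:**
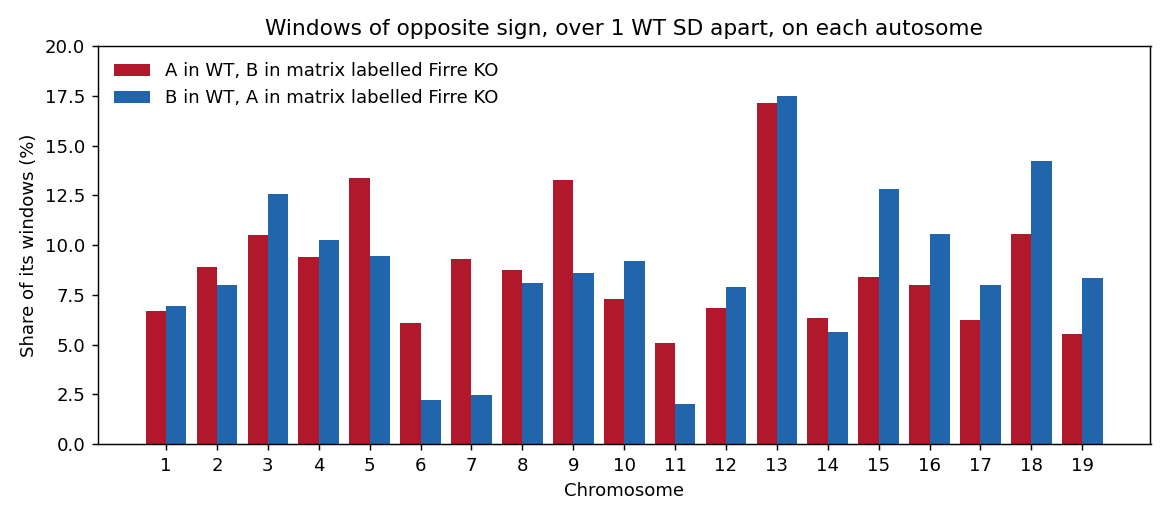
Share of the windows of each autosome (x axis) that were A-to-B (red) or B-to-A (blue), in percent (y axis, from 0). Chromosome 13 has the tallest bars in both directions, and chromosomes 6, 7 and 11 have few B-to-A windows.

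Contacts between chromosomes were not among the values from which PC1 was computed, and they were used as another readout of the same windows. This readout is not fully separate from the rule. The correction to equal bin totals used pairs within and between chromosomes, and PC1 signs define the partner windows. For each window, the read pairs that joined it to windows of other autosomes which were A in both or B in both matrices were counted, and the share that joined A windows was taken. Member windows had at least 681 such read pairs in WT and 1650 in the KO-labelled matrix, with medians of 2599 and 4006.5. The median window that was A in both had 70.9% of these pairs with A windows in WT and 72.2% in the KO-labelled matrix, and the median window that was B in both had 48.8% and 43.0%. A-to-B windows had 67.5% in WT and 50.1% in the KO-labelled matrix, and B-to-A windows 50.8% and 67.3%. In each matrix, the median of either direction thus lay nearer to that of the class that PC1 gave, which did not hold for every window.

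Because both matrices differ in the spread of these shares, each share was placed on a scale on which 0 is the median B-in-both window and 1 the median A-in-both window of its matrix. On this scale, called the position between chromosomes, the median A-to-B window stood at 0.846 in WT and 0.246 in the KO-labelled matrix, a median difference of -0.586 (10th to 90th percentile -0.948 to -0.309). The median B-to-A window stood at 0.0924 and 0.831, a median difference of 0.710 (0.452 to 1.00). The position was lower in the KO-labelled matrix for 521 of the 522 A-to-B windows, where 48.2% of all windows were lower. It was higher for all 496 B-to-A windows, where 51.8% of all windows were higher. The exception was a window of chromosome 18 from 25200001 to 25600000, whose position was 0.327 in WT and 0.398 in the KO-labelled matrix.

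The differences were mostly larger than counting error. The 95% intervals of both matrices did not overlap for 509 A-to-B windows (97.5%), against 27.3% of all windows that were lower with intervals apart. They did not overlap for any of the 496 B-to-A windows, against 32.3% of all windows that were higher with intervals apart. In 410 A-to-B windows (78.5%) the position was above 0.5 in WT and below 0.5 in the KO-labelled matrix, which held for 9.31% of all windows. The opposite crossing was found in 456 B-to-A windows (91.9%) and in 13.6% of all windows. In the KO-labelled matrix, the median A-to-B window (0.246) thus stood farther from the B-in-both median of 0 than the median B-to-A window (0.831) stood from the A-in-both median of 1. Over all 5853 windows, the differences in PC1 and in position correlated with Pearson r = 0.915, and over the 4835 windows that are no members with r = 0.815. These values are a description, since both measures come from the same libraries and neighbouring windows are not independent.

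**Figure D3:**
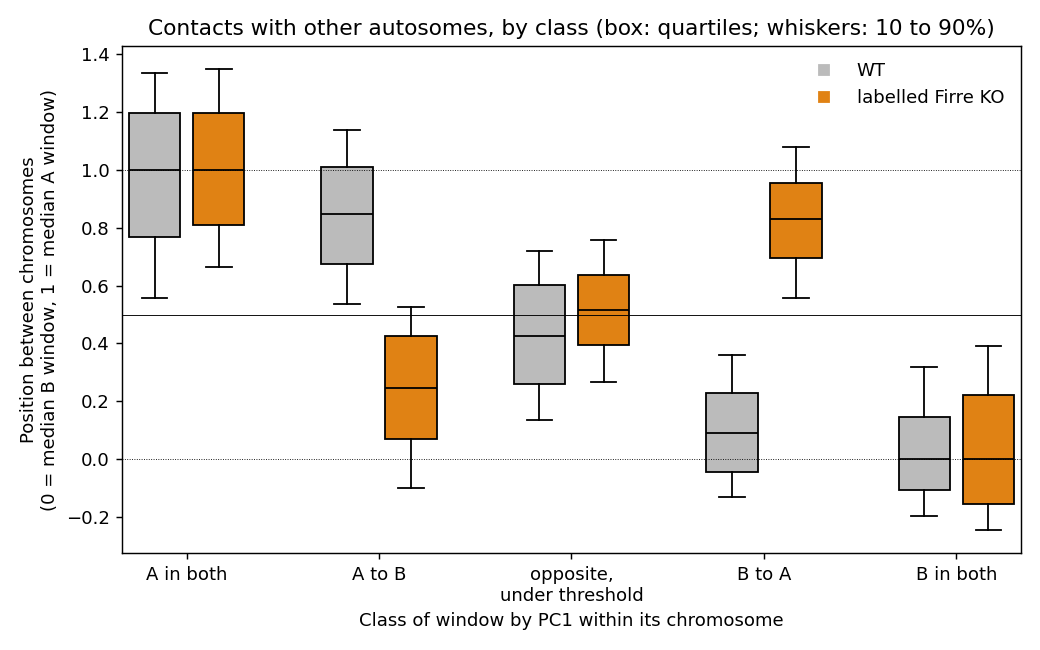
Position between chromosomes (y axis, no unit) of the windows of each class (x axis) in WT (grey) and in the KO-labelled matrix (orange); boxes span the quartiles around the median line and whiskers the 10th to 90th percentile of windows. The medians in WT and in the KO-labelled matrix are 0.846 and 0.246 for A-to-B windows and 0.0924 and 0.831 for B-to-A windows, while those of windows of opposite sign under the threshold lie near the middle (0.427 and 0.517).

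The contacts summed over whole classes gave the same order. Read pairs between A-to-B windows and A-in-both windows of other autosomes were 1.07 times those given by the windows' totals in WT, and 0.793 times in the KO-labelled matrix. With B-in-both windows, the values were 0.868 and 1.25. For B-to-A windows, contacts with A-in-both windows were 0.810 in WT and 1.10 in the KO-labelled matrix, and contacts with B-in-both windows 1.29 and 0.850. In each matrix, member windows thus had more contacts than their totals gave with the class of their PC1 there, and fewer with the other class. A-to-B windows contacted each other on different autosomes 1.09 times as often as given by their totals in WT and 1.35 times in the KO-labelled matrix, and B-to-A windows 1.28 and 1.16 times. Contacts between both kinds were below 1 in each matrix, 0.888 and 0.815. The Poisson intervals of these values, which cover counting error only, did not overlap between both matrices.

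The genes of the member windows were then examined, beginning with those of pluripotency. Of all 20602 protein-coding genes in the compared windows, 2238 (10.9%) started in A-to-B windows and 704 (3.42%) in B-to-A windows, and gene lists are read against these shares. Only a gene in A in WT can be A-to-B, and only a gene in B in WT can be B-to-A. The shares of the lists are not adjusted for that. The lists, those of pluripotency and fibroblast genes included, were chosen with earlier results of these data known, so that their shares are a description. Of 27 naive pluripotency genes, 7 started in A-to-B windows (25.9%) and 0 in B-to-A windows: Esrrb, Fbxo15, Nr5a2, Sox2, Tbx3, Tcl1 and Utf1. In WT, 23 of the 27 lay in A, and in the KO-labelled matrix 14 did (85.2% and 51.9%), where 71.6% and 62.1% of all genes did. The list's median position between chromosomes was 0.965 in WT and 0.553 in the KO-labelled matrix, against 0.906 and 0.793 over all genes. It was lower in the KO-labelled matrix for 19 of the 27 genes, 17 of them with intervals apart. Over all genes, it was lower for 11546 of 20602, 7450 of them with intervals apart.

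Sox2, a high-mobility-group factor that binds with Oct4, is the only protein-coding gene that starts in its window (chromosome 3, 34400001 to 34800000). PC1 of this window was 1.58 in WT and -0.961 in the KO-labelled matrix. Of the 4051 read pairs that joined it to A-in-both or B-in-both windows of other autosomes in WT, 68.1% (Wilson 95% interval 66.7 to 69.5) were with A windows. In the KO-labelled matrix, 46.1% (44.7 to 47.6) of 4419 were. This placed the window close to the A-in-both median in WT and close to the B-in-both median in the KO-labelled matrix, with positions of 0.876 and 0.109. It belonged to a run of 6 A-to-B windows (chromosome 3, 33600001 to 36000000) that also holds Fxr1, Atp11b and Mccc1.

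The window of Tcl1, which encodes a co-activator of the Akt kinase found in early embryos (chromosome 12, 106400001 to 106800000), had a position of 1.03 (95% interval 0.967 to 1.09) in WT and 0.0539 (0.00586 to 0.102) in the KO-labelled matrix. Esrrb, an orphan nuclear receptor, is the only gene that starts in its window (chromosome 12, 87600001 to 88000000), where the position was 1.03 (95% interval 0.977 to 1.09) in WT and 0.383 (0.340 to 0.426) in the KO-labelled matrix. For Utf1, a chromatin-bound factor of undifferentiated cells, positions were 0.950 and 0.231 in WT and the KO-labelled matrix. The T-box factor Tbx3 shares its window on chromosome 5 with Tbx5, at 1.05 and 0.406. These windows all stood near the A-in-both median in WT, and of these the Tcl1 window had the widest difference. Further members had smaller differences, namely Fbxo15, an F-box protein of mESCs, at 0.707 and 0.328, and Nr5a2, a nuclear receptor, at 0.658 and 0.501.

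Most other naive genes were in A in both matrices, among them Pou5f1 (PC1 1.45 and 1.53 in WT and the KO-labelled matrix), Klf4 (1.39 and 1.45) and Tet1 (1.59 and 1.53). Other A-in-both naive genes had lower PC1 in the KO-labelled matrix, as at Sall4 (1.30 and 0.417) and Prdm14 (1.17 and 0.206). Nanog and Dppa3 share a window that had opposite signs but remained under the threshold, with PC1 of 0.688 and -0.207. Dppa2 and Dppa4, in a shared window, were in B in both matrices (-0.636 and -1.30), as were Zfp42 (-0.277 and -0.655) and Tet2 (-0.771 and -0.503). Naive genes were thus found in every class except B-to-A. Of 13 genes of primed pluripotency, 3 started in A-to-B windows and 0 in B-to-A windows. Otx2, a homeobox factor that marks the exit from the naive state, had PC1 of 1.05 in WT and -1.26 in the KO-labelled matrix, with positions of 0.957 and -0.0213. Foxd3, a forkhead repressor, had positions of 0.794 and 0.323 and the POU factor Pou3f1 of 1.14 and 0.197. Of the list, 9 of the 13 were A in both matrices, and the position was lower in the KO-labelled matrix for 6, 6 of them with intervals apart, and higher for 7, 3 of them with intervals apart.

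**Figure D4:**
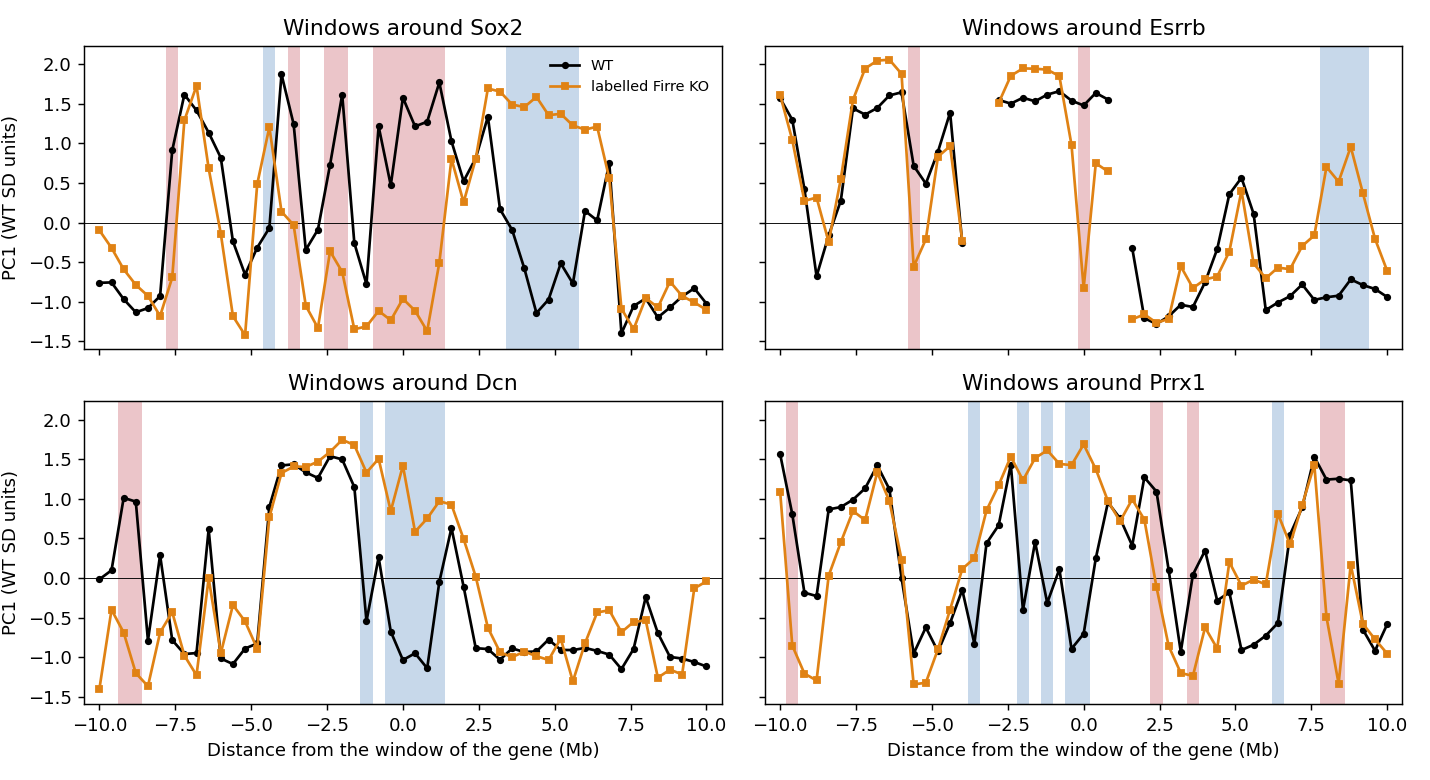
PC1 in WT (black circles) and in the KO-labelled matrix (orange squares), in WT SD units (y axis), for 400 kb windows within 10 Mb of the windows of Sox2, Esrrb, Dcn and Prrx1 (x axis, distance in Mb; each point is a window, and gaps are windows left out). Red bands mark A-to-B windows and blue bands B-to-A windows: the Sox2 and Esrrb windows go from 1.58 and 1.48 to -0.961 and -0.826, the Dcn and Prrx1 windows from -1.04 and -0.705 to 1.42 and 1.69.

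Fibroblast genes showed the opposite direction. Of 35 genes of fibroblast identity, 10 (28.6%, against 3.42% of all genes) started in 8 B-to-A windows, and 1, Tgfbi, in an A-to-B window. The 10 were Col3a1, Col5a2, Dcn, Fbn1, Lox, Lum, Meox2, Prrx1, Twist1 and Vim. In WT, 19 of the 35 lay in A, and in the KO-labelled matrix 26 did (54.3% and 74.3%, against 71.6% and 62.1% of all genes). A larger part of this list than of all genes was thus in B in WT and could be B-to-A, and the share of 28.6% was not adjusted for that. The list's median position between chromosomes was 0.504 in WT and 1.01 in the KO-labelled matrix. It was higher in the KO-labelled matrix for 26 of the 35 genes, 23 of them with intervals apart. Over all genes, it was higher for 9056 of 20602, 4915 of them with intervals apart. The feeder cells named in the methods of the study are fibroblasts, and their part in the differences of this list and of the pluripotency lists was not tested. No RNA was measured in these samples, so that compartment and not expression is described.

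Dcn and Lum, which encode proteoglycans that bind collagen fibrils, share a window (chromosome 10, 96800001 to 97200000) with PC1 of -1.04 in WT and 1.42 in the KO-labelled matrix. Of its 1090 read pairs with A-in-both or B-in-both windows of other autosomes in WT, 43.7% (40.8 to 46.6) were with A windows. In the KO-labelled matrix it was 76.0% (74.4 to 77.4) of 3182. The window thus lay below the median of B-in-both windows in WT and above the median of A-in-both windows in the KO-labelled matrix, with positions of -0.232 and 1.13. Prrx1, a homeobox factor of limb and connective tissue mesenchyme (chromosome 1, 165200001 to 165600000), had a position of -0.000600 (95% interval -0.113 to 0.112) in WT and 1.28 (1.24 to 1.32) in the KO-labelled matrix. Twist1, a basic helix-loop-helix factor (chromosome 12, 34400001 to 34800000), had -0.132 (95% interval -0.237 to -0.0264) in WT and 0.780 (0.726 to 0.834) in the KO-labelled matrix.

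The fibrillar collagen genes Col3a1 and Col5a2 start in the same window on chromosome 1, with positions of 0.0332 and 1.19 in WT and the KO-labelled matrix. Positions were 0.518 and 1.04 for Fbn1 (fibrillin of elastic microfibrils), 0.229 and 0.849 for Vim (an intermediate filament of mesenchymal cells) and -0.000346 and 0.815 for Lox (an enzyme that cross-links collagen). Meox2, a homeobox factor of mesoderm, had -0.0294 and 0.498. The Fbn1 window was therefore already midway in WT, and the Meox2 window came midway in the KO-labelled matrix, whereas the others spanned most of the scale. Tgfbi, an extracellular matrix protein, lay in the longest A-to-B run of chromosome 13 and had positions of 1.09 and 0.599. Of the fibroblast genes in no member window, Col1a1 (PC1 1.01 and 1.40), Col6a3 (1.44 and 1.99) and Thy1 (1.36 and 1.48) were in A in both matrices, and Fap (-1.15 and -0.770) and Sparc (-0.645 and -1.05) were in B in both.

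The 8 A-to-B windows with the widest PC1 difference lay on chromosomes 3, 4, 13 and 17. The widest, on chromosome 13 from 57600001 to 58000000, had PC1 of 1.09 in WT and -1.64 in the KO-labelled matrix and positions of 0.863 and -0.243, and contains no start of a protein-coding gene. In the same run of adjoining windows, Smad5, a transducer of bone morphogenetic protein signals, and Trpc7, a cation channel, share a window with PC1 of 1.18 in WT and -1.46 in the KO-labelled matrix. Ntrk2, the receptor of brain-derived neurotrophic factor, lies in the same run, with PC1 of 1.26 in WT and -1.42 in the KO-labelled matrix. The window of Abcg1 (a cholesterol exporter), Umodl1 and Glp1r (the receptor of glucagon-like peptide 1) on chromosome 17 had positions of 1.34 and -0.0363, the highest position in WT of these 8. The window of Frem2, Stoml3 and Nhlrc3 on chromosome 3 had 0.808 and 0.173 and that of Igsf21 on chromosome 4 1.19 and -0.0480. The others, from 57200001 on chromosome 13 and from 35200001 on chromosome 3, contain no gene start.

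Of the 8 B-to-A windows with the widest difference, 3 adjoin each other on chromosome 9. The window from 78800001 to 79200000 had PC1 of -1.27 in WT and 1.62 in the KO-labelled matrix and positions of -0.140 and 1.21, and contains no gene start. On its sides lie the windows of Col12a1, a collagen that associates with fibrils, with positions of -0.0205 and 1.29, and of Slc17a5 (a lysosomal sialic acid exporter) and Cd109 (a membrane-anchored glycoprotein), with 0.165 and 1.22. Tnc, which encodes the matrix protein tenascin C, is the only gene that starts in its window on chromosome 4, with positions of 0.0215 and 1.12. The other 4, on chromosomes 2, 3, 12 and 18, contain no gene start. Their positions were 0.00679 and 1.20 on chromosome 2, 0.0258 and 1.05 on chromosome 3, 0.00812 and 0.939 on chromosome 12 and -0.186 and 1.01 on chromosome 18. All 8 thus stood near the B-in-both median in WT and near or above the A-in-both median in the KO-labelled matrix.

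Member windows of the same direction often adjoined. The 522 A-to-B windows formed 273 runs, of which 142 were single windows, and 72.8% of the windows lay in runs of 2 or more. The 496 B-to-A windows formed 229 runs, with 105 single windows and 78.8% of windows in runs of 2 or more. A-to-B runs reached 8 windows (3.2 Mb) and B-to-A runs 10 windows (4 Mb). Neighbouring windows share read pairs along the chromosome and are not independent, so that no test was made of this clustering. A window next to a sign change in WT was found in 30.1% of A-to-B and 37.1% of B-to-A windows, against 27.5% of all windows. Most members were thus not next to a change of sign in WT.

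The longest A-to-B runs had 8 windows each. That of Tgfbi, Smad5 and Ntrk2 (chromosome 13, 56400001 to 59600000) had positions of 0.863 to 1.26 in WT and -0.247 to 0.599 in the KO-labelled matrix. The other (chromosome 9, 46000001 to 49200000) holds the apolipoprotein genes Apoa1, Apoc3, Apoa4 and Apoa5, the adhesion gene Cadm1, the zinc finger factor gene Zbtb16 and the dopamine receptor gene Drd2, with positions of 0.688 to 1.12 in WT and -0.177 to 0.235 in the KO-labelled matrix. In both runs, the lowest window in WT was above the highest in the KO-labelled matrix. The run of the morphogen gene Shh and the homeobox gene En2 (chromosome 5, 27200001 to 29600000) had positions of 0.443 to 0.967 in WT and -0.268 to 0.222 in the KO-labelled matrix. Tert, which encodes the catalytic subunit of telomerase, and the homeobox genes Irx2 and Irx4 lie in a run of 6 windows (chromosome 13, 72400001 to 74800000), where positions ranged from 0.411 to 1.15 in WT and -0.131 to 0.654 in the KO-labelled matrix. The interferon gamma gene Ifng and Il22 lie in a run on chromosome 10 (117200001 to 119600000), and Bmp7, Tcfap2c and the mitotic kinase gene Aurka in a run on chromosome 2 (170400001 to 172800000).

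Of the B-to-A runs, 2 had 10 windows. The first (chromosome 13, 25200001 to 29200000) holds the prolactin gene cluster and Sox4, with positions of -0.310 to 0.387 in WT and 0.634 to 1.08 in the KO-labelled matrix. The second (chromosome 15, 59600001 to 63600000) is a gene-poor region of 5 protein-coding genes around the growth regulator Myc, with positions of -0.0859 to 0.457 in WT and 0.783 to 1.12 in the KO-labelled matrix. The Myc window itself had PC1 of -0.498 in WT and 1.10 in the KO-labelled matrix, and the highest position of that run in WT. Tnc lies in a run with Col27a1, Pappa (a protease of insulin-like growth factor binding proteins) and the acute-phase genes Orm1, Orm2 and Orm3 (chromosome 4, 62400001 to 65200000), with positions of -0.180 to 0.426 in WT and 0.975 to 1.19 in the KO-labelled matrix. Twist1 lies in a run with Hdac9 and the aryl hydrocarbon receptor gene Ahr (chromosome 12, 34000001 to 36800000), with -0.132 to 0.415 in WT and 0.776 to 0.990 in the KO-labelled matrix. Gli3, an effector of hedgehog signals, and Inhba, a subunit of activin, lie in a run of 7 windows, 5 of which hold no gene start (chromosome 13, 14800001 to 17600000), with -0.189 to 0.207 in WT and 0.733 to 0.927 in the KO-labelled matrix. In each of these runs, the lowest position in the KO-labelled matrix exceeded the highest in WT.

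Some gene clusters lay wholly or largely in member windows. All 27 genes whose symbols are Klk followed directly by a number, kallikrein serine proteases, started in 2 adjoining A-to-B windows on chromosome 7. Positions were 1.08 and 0.890 in WT and 0.263 and 0.0841 in the KO-labelled matrix. All 10 genes whose symbols are Oas followed directly by a number, antiviral oligoadenylate synthetases, started in A-to-B windows on chromosome 5. The window that holds 9 of them had 1.16 and 0.267. These 2 families were picked after their values were seen, and the prolactin list, like the other lists, was chosen with earlier results of these data known. In the other direction, 23 of 29 genes of the prolactin list, most of them hormones of the pituitary and placenta, started in 4 B-to-A windows on chromosome 13. Positions of those windows were between -0.310 and -0.0348 in WT and between 0.720 and 0.892 in the KO-labelled matrix. Genes of a cluster share windows, so that these counts rest on few regions.

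Among larger families, 93 of 413 zinc finger protein genes (22.5%, against 10.9% of all genes), in 43 windows, were in A-to-B windows. In B-to-A windows were 5 (1.21%, against 3.42% of all genes). Of the 1102 olfactory receptor genes, 58 (5.26%) in 15 windows were in A-to-B windows, below the share of all genes, and 0 in B-to-A windows. Of the receptor genes, 1006 were in B in both, and 96 (8.71%) lay in A in WT, against 71.6% of all genes. Only a gene in A in WT can be A-to-B, and the share of 5.26% was not adjusted for that. The 58 were among these 96 genes, whereas over all genes 2238 of the 14742 in A in WT were A-to-B. The clustered protocadherins, adhesion proteins of neurons, had 12 of 24 genes in 2 A-to-B windows, and the other 12 were in B in both. These 24 genes start in only 3 windows. Of 67 replication-dependent histone genes, 18 (26.9%) started in a single A-to-B window on chromosome 13. The 39 Hox genes, which pattern the body axis, were all in A in both matrices and none lay in a member window. Of 78 ribosomal protein genes, 7 (8.97%) were in A-to-B and 1 (1.28%) in B-to-A windows, near or below the shares of all genes, and 61 were in A in both.

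**Figure D5:**
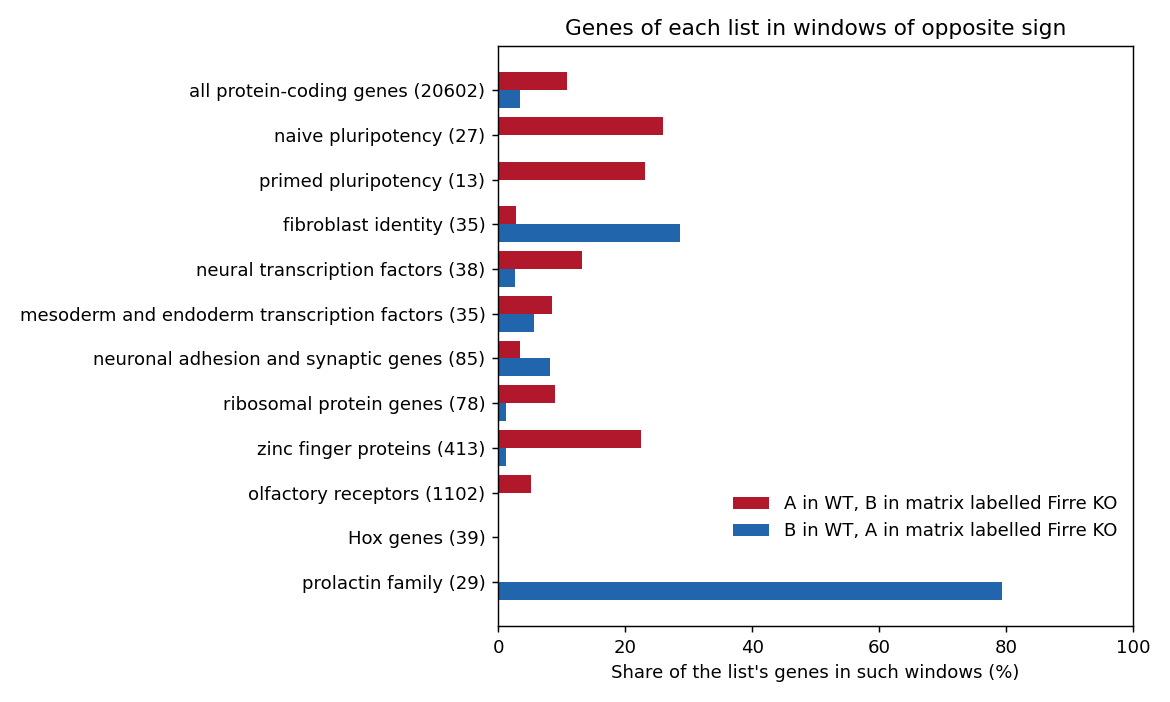
Share of the genes of selected lists (y axis, with the number of genes in compared windows) that started in A-to-B (red) or B-to-A (blue) windows, in percent (x axis, from 0). The fibroblast (28.6%) and prolactin (79.3%) lists have the longest blue bars, against 3.42% of all genes, and the pluripotency and zinc finger lists have red bars of 22.5% to 25.9%.

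Developmental regulators of other lineages were found in both directions. Of 38 neural transcription factors, 5 were in A-to-B windows and 1 in a B-to-A window. PC1 was 1.16 and -0.656 (WT and the KO-labelled matrix) for En2 of the midbrain, 1.45 and -0.671 for Pax7 of the dorsal neural tube and muscle progenitors, and 0.355 and -0.984 for Nkx2-2 of the ventral neural tube. It was 1.02 and -0.524 for the proneural factor Neurog2, 1.35 and -0.146 for the LIM homeobox factor Lhx5, and -0.566 and 1.07 for Neurod1, the B-to-A gene. Of 35 mesoderm and endoderm factors, Myod1 of muscle (1.29 and -0.509), Prox1 of lymphatic endothelium (1.09 and -0.570) and Tbx5 of the heart (1.09 and -0.563) were A-to-B. Gata6 of primitive endoderm (-0.121 and 0.890) and the forkhead factor Foxc1 (-0.518 and 1.25) were B-to-A. These shares lay between 2.63% and 13.2%, near those of all genes.

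Genes of neuronal adhesion and synapses were mostly B in both matrices (67 of 85 entries, among which Magi2 appears more than once). In WT, 11 of the 85 (12.9%) lay in A, against 71.6% of all genes, and only a gene in B there can be B-to-A. In B-to-A windows lay 7 (8.24%, against 3.42% of all genes), a share not adjusted for that. Several of these encode guidance cues or their receptors: positions were -0.0401 and 0.837 for Sema3c, 0.0656 and 0.504 for Sema3a, -0.170 and 0.578 for Slit2 and -0.168 and 0.600 for its receptor Robo2. The growth factor gene Nrg1 had 0.0551 and 0.873, the adhesion gene Pcdh7 0.103 and 0.629 and the glutamate receptor gene Gria2 0.162 and 0.778. The Sema3c and Nrg1 windows thus came nearest to the A-in-both median. In A-to-B windows lay Dscaml1 (1.12 and 0.120), an adhesion protein of the retina, Cdh4 (0.696 and -0.183), a cadherin, and Grin2b (0.633 and 0.312), a glutamate receptor subunit. Of 28 imprinted genes, Gnas, which encodes a G protein subunit, was A-to-B, with positions of 1.06 and 0.213, and Dcn was B-to-A, as given above.

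Both directions differed in features other than the contacts. The median GC content was 44.4% in A-to-B and 40.1% in B-to-A windows, against 44.8% in A-in-both, 38.9% in B-in-both and 41.6% in all windows. Per kb, A-to-B windows had a median of 10.3 CG dinucleotides and B-to-A windows 6.89, against 11.2 in A-in-both, 5.75 in B-in-both and 8.08 in all windows. By base composition, the median A-to-B window was thus nearer to A-in-both than to all windows, while the median B-to-A window lay between B-in-both and all windows. The number of HindIII sites, at which the chromatin was cut, had medians of 124.5 and 137 per window, against 129 in all windows. Gene number set the sign of PC1 for each whole chromosome, and it is given as a description. A-to-B windows held a median of 3 protein-coding gene starts and B-to-A windows 1. The medians were 5 in A-in-both, 1 in B-in-both and 2 in all windows. No start was found in 52 A-to-B windows (9.96%) and in 190 B-to-A windows (38.3%), against 27.3% of all windows. The shares were 4.52% in A-in-both and 47.1% in B-in-both windows.

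The promoters of the genes in both directions had close values of CG content. In windows of the same length around the GENCODE starts, the median promoter held 10 CG dinucleotides in A-to-B and 10 in B-to-A windows, against 17 in A-in-both, 3 in B-in-both and 12 in all. At least 10 were found in 52.7% and 51.8% of promoters, against 56.0% of all. They were found in 68.0% of A-in-both and 28.6% of B-in-both promoters, so that both directions lay between the classes that kept their sign. The motifs below were searched on both strands. The TATA box (TATAAA) was found in 11.5% of A-to-B and 16.8% of B-to-A promoters, against 8.69% of A-in-both, 24.4% of B-in-both and 13.2% of all. The motif TGANTCA, in which N is any base, includes the AP-1 site but is wider than it. This motif was found in 5.54% and 7.39%, against 5.56% of A-in-both, 10.4% of B-in-both and 6.83% of all. The octamer (ATGCAAAT) was found in 1.12% and 2.84%, against 1.27% of A-in-both, 2.90% of B-in-both and 1.74% of all. A match describes the sequence, not binding.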

How the data were processed

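Hi-C was performed with HindIII on 2 libraries each of cells labelled as WT and Firre KO male mESCs. The authors deposited, per genotype, a matrix of contact signal between 40 kb bins of mm9 and a bin table. Per the submitters' processing notes, reads were processed with HiC-Pro 2.7.8. The deposited signal is the read pairs of both libraries after iterative correction, which scales all bins to equal totals. Whole read pairs were recovered from it: all entries came out whole within 0.05. They gave 65611035 and 46635652 read pairs, and the shares between chromosomes with their Wilson 95% intervals.

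Corrected values were summed to 400 kb windows with at least 8 of 10 bins kept in both matrices, which left 5853 of 6189. PC1 was computed per autosome on column-centred correlation matrices (python 3.11.15, numpy 2.4.6, scipy 1.17.1, pandas 2.3.3). Genes were assigned by their GENCODE vM1 start sites, and all 22 chromosome lengths equalled those of the mm9 reference. The named windows were the 8 with the widest difference per direction, with up to 3 genes each, and the genes of the lists. Genes named for runs or clusters were chosen after their values were seen. The members and lists were chosen with earlier results of these data known. With 1 matrix per group, no test was made. Scripts were tested on simulated data.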

Additional observations from a re-analysis of the deposited data

How the results depend on the processing

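No paired analysis was possible because the 2 libraries of each genotype were pooled into 1 matrix, and for the same reason no library could be left out. Of 88 values under alternative settings, 76 stayed close. These include the values with the SD of the KO-labelled matrix, which had to be the same because PC1 is scaled to the same SD in both matrices. At a threshold of 1.5 SD, 320 A-to-B windows (5.47%) and 269 B-to-A windows (4.60%) remained of 522 and 496. The share of A-to-B windows with a lower position between chromosomes was 98.1% at a threshold of 0.5 SD and 94.0% with 800 kb windows. It was 100% at 1.5 SD, with 200 kb windows, with uncorrected read pairs, with corrected values between chromosomes and with the unscaled share. The share of B-to-A windows with a higher position was 91.8% with 800 kb windows. Taking, on each chromosome, the component of the first 3 that best followed gene count gave 77.8% and 80.2% for both shares. That setting kept 69.3% of the A-to-B and 74.8% of the B-to-A windows, and put 14 and 3 in the other direction. The cause was not tested. From odd bins only, 83.5% and 85.5% of the windows were found again, and from even bins only 84.7% and 84.9%. Leaving out chromosome 13 and signing PC1 by contacts between chromosomes were chosen after seeing the data, and the latter gave the same windows. Counting intervals limit the position of windows with few read pairs between chromosomes.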

Other observations

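Further gene families were placed against the shares of all genes (10.9% in A-to-B and 3.42% in B-to-A windows). Of 98 cytochrome P450 genes, enzymes that oxidise drugs and steroids, 20 in 7 windows were in A-to-B and 2 in B-to-A windows. Of 97 genes of keratins and keratin-associated proteins of epithelia and hair, 17 were in 2 A-to-B windows and 0 in B-to-A windows, and the list's median position between chromosomes was 0.914 in WT and 0.528 in the KO-labelled matrix. Serpins, inhibitors of serine proteases, had 7 of 59 genes (11.9%) in 2 B-to-A windows and 0 in A-to-B windows. In WT, 11 of the 59 (18.6%) lay in A, against 71.6% of all genes. Only a gene in B in WT can be B-to-A, and the serpin share was not adjusted for that. Potassium channel genes had 14 of 93 in A-to-B windows and 2 in B-to-A windows. Solute carriers, a family of membrane transporters found in many cell types, had 10.7% and 4.78%, close to all genes.

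The last clusters were picked after their values were seen. Of 11 genes whose symbols are Gbp followed directly by a number, guanylate-binding proteins induced by interferon, 6 started in 2 A-to-B windows on chromosome 5. Positions were 0.835 and 0.645 in WT and -0.171 and 0.320 in the KO-labelled matrix. The other 5 lay in a window on chromosome 3 that was A in both matrices, with 0.433 and 0.869. Of 11 interferon alpha genes (Ifna), 6 started in a B-to-A window on chromosome 4, with 0.154 and 0.895, and 5 in the adjoining window, which was B in both, with 0.129 and 0.535.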
